A study of Anopheles gambiae with 16 samples.

Results

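Circulating hemocytes, the blood cells of the mosquito Anopheles gambiae, were compared with heads of the same G3 strain on single-colour oligonucleotide arrays. The comparison used 8 of the 16 arrays of the series, 4 of hemocytes and 4 of heads, chosen by their titles, and the 16884 probe sets whose ID begins with Ag. out of 22761 on the array. The other 8 arrays hold carcasses, the body left after bleeding and decapitation, 4 amplified in 2 rounds (80 ng of input RNA) and 4 in 1 round (1000 ng). All animals were adult females, 1 to 2 days past eclosion, and the series design calls them naive.

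The hemocyte and head groups share strain, sex, age, 80 ng of starting RNA and 2 rounds of amplification. They differ in collection and extraction. A head pool came from 40 females and was cut into Trizol before column clean-up, while hemolymph was pressed from the thorax through the clipped proboscis straight into a column buffer. The hemocyte labels give 1000 females in the source name and 500, called infected, in the collection note. The labels call each array a biological replicate, and p-values here measure the spread between such pools. Tissue, collection and extraction cannot be told apart in these groups.

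Hemocytes circulate in the open body cavity of insects, where they engulf microbes, take part in melanization through phenoloxidases and secrete proteins of the complement-like defence. A mosquito head holds the brain, the compound eyes, the antennae, palps and mouthparts with their sensory neurons, and also muscle, cuticle, fat body and hemolymph. In such bulk samples fewer cells of a type and less RNA per cell cannot be told apart. Probe sets carry only array IDs, and the table of 15165 genes at hand matched 0 of the 16884 IDs, so no gene is named and the tissue labels were not checked against marker genes. An ID gives a chromosome arm (UNKN where it has none), a number here called the stem, and for most probe sets the mark CDS or UTR.

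The 4 head arrays were slightly brighter at the median than the 4 hemocyte arrays, without overlap. Median Ag. intensity was 23.22 to 27 in heads and 19.87 to 21.75 in hemocytes. As background, the value that 95% of the probe sets with the prefix Pf. on the same array stay under was used, and it was 12.72 to 14.59 in heads and 12.51 to 13.35 in hemocytes. Above it lay 10529 to 10954 Ag. probe sets in heads and 10050 to 10459 in hemocytes. The source name of head replicate 4 gives carcasses of 20 females, while its title, description and tissue entry give heads, and it stayed in the head group. Without it 3385 probe sets were called in place of 3442, and 3256 of the calls were the same probe sets in the same direction.

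Head replicate 1 stood apart from the other heads. There were 13061 probe sets above background on at least 4 of the 16 arrays, called bright here, and 894 of them (6.84%) differed at least 2-fold there from the mean of the other 3 heads. The same share was 1.09% to 3.96% on each of the other 7 arrays. At 4-fold the number was 179, with 117 lower and 62 higher in head replicate 1, and 169 of them (94.4%) departed towards the hemocyte level. Both directions were taken from the same mean of the other 3 heads, which by itself favours agreement. The like share was not computed for other arrays. The 117 lower ones had a median log2 level of 5.95 in head replicate 1, 9.53 in the other heads, 5.62 in hemocytes and 8.52 in two-round carcasses. The 62 higher ones had medians of 9.42, 6.86, 10.42 and 8.12 in the same order. Head replicate 4, the array with the conflicting label, had 47 probe sets at least 4-fold above the other heads. Their medians were 9.96 there, 7.16 in the other heads (head replicate 1 among them), 4.88 in hemocytes and 9.31 in two-round carcasses. Over all Ag. probe sets its correlation was higher with the averaged other head arrays (0.9721) than with carcasses of 2 rounds (0.8869). What sets head replicate 1 apart was not tested, and the counts of large and of one-sided differences, the carcass levels and the named probe sets are also given without it.

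**Figure D1:**
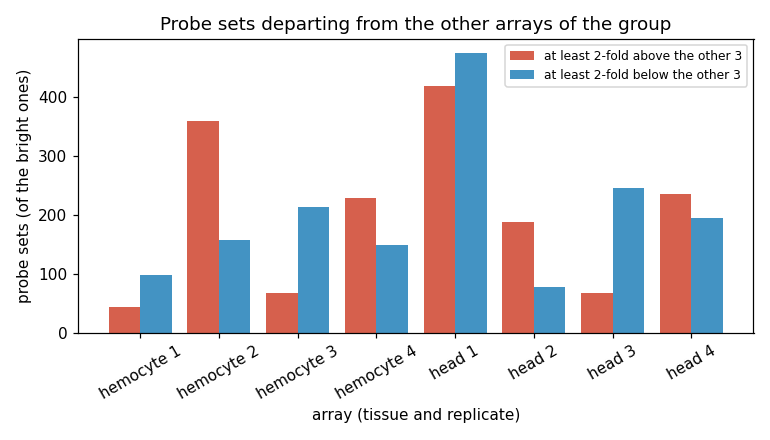
Number of bright probe sets (of 13061) that lay at least 2-fold above (red) or below (blue) the mean of the other 3 arrays of the same tissue, for each hemocyte and head array. Head replicate 1 has 419 above and 475 below, the most of the 8 arrays in either direction.

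Hemocytes and heads differed at a large part of the array. In hemocytes 1872 (11.1%) of the 16884 probe sets rose over heads and 1570 (9.3%) fell, together 20.4%, at a limma adjusted p under 0.05 and a difference of at least 2-fold on the log2(intensity + 16) scale. The median difference was 1.62 (log2) in the higher list, with a median standard error of 0.235, and -1.82 in the lower list, with 0.246. Over all probe sets the median was -0.0045, with an interquartile range from -0.33 to 0.37. Without a fold minimum 18.7% were higher and 16.2% lower. In 1796 of the higher (10.6% of all probe sets) and 1447 of the lower calls (8.57%) the 4 hemocyte arrays did not overlap the 4 head arrays. Over all probe sets, called or not, 17.6% lay higher and 14.9% lower in hemocytes without overlap, together 32.5%. A pseudocount of 64 in place of 16 left 1260 higher and 928 lower calls. Of the 4502 Pf. probe sets on the same arrays 0.0444% were called by the same rule. Their median intensity was 1.819 to 2.292 on head and 1.97 to 2.116 on hemocyte arrays. With 16 added, levels under background cannot differ 2-fold, so the low Pf. share is no check on false calls.

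**Figure D2:**
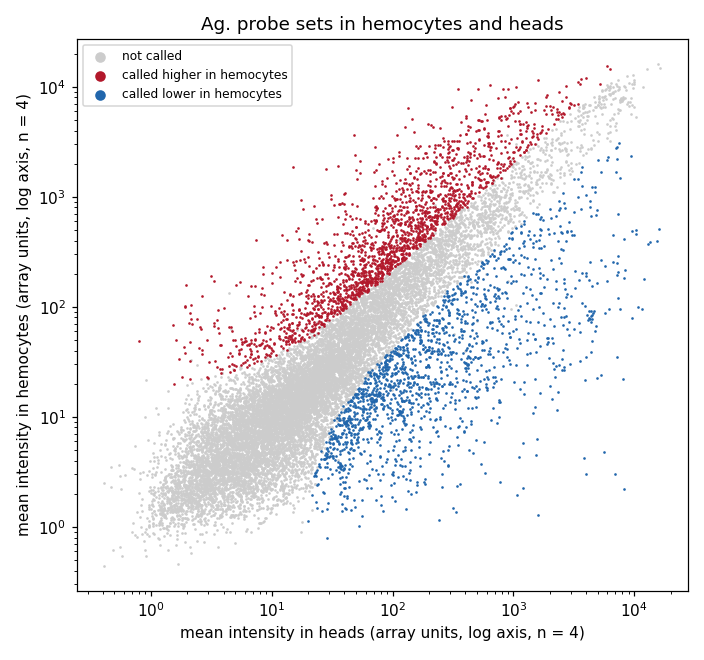
Mean intensity of each Ag. probe set in 4 hemocyte arrays (vertical, log axis) against 4 head arrays (horizontal, log axis). Red points are the 1872 called higher in hemocytes, blue points the 1570 called lower and grey points the rest, and blue points reach further from the grey band than red ones do.

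Moderate differences ran mostly towards hemocytes and extreme ones towards heads. Between 2-fold and 4-fold there were 1244 higher and 861 lower calls, and between 8-fold and 16-fold 173 and 170. At 16-fold or more the balance turned, with 51 probe sets higher (0.302% of all) and 177 lower (1.05%). At 32-fold or more there were 6 higher and 78 lower, and 16 and 98 without head replicate 1. Leaving out head replicate 1 raised the 16-fold counts to 75 and 206, and falls outnumbered rises with and without that array. The sizes depend on the pseudocount, with 119 rises and 349 falls at 1, and 18 and 97 at 64. The surplus of rises among calls of any size, 54.4% of them here, depends on the processing too. It was 50.1% at a pseudocount of 1 and 57.6% at 64. Quantile normalization gave 50.9% and median centring 62%. In 60 of the 177 large falls head replicate 1 lay at least 2-fold below the other heads, and in 8 it overlapped the hemocyte arrays.

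**Figure D3:**
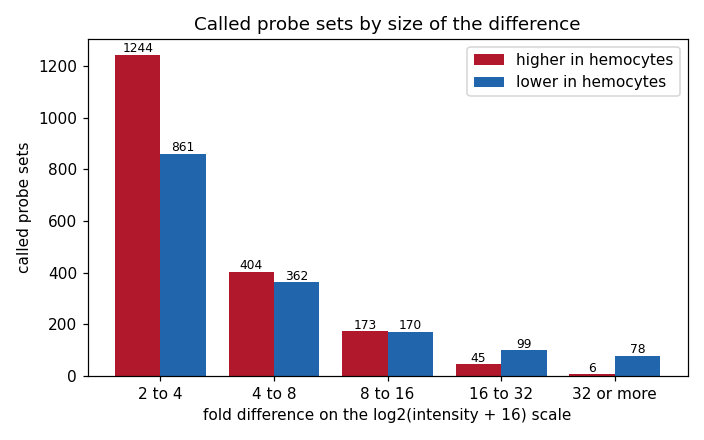
Number of probe sets called higher (red) and lower (blue) in hemocytes than in heads, by size of the fold difference on the log2(intensity + 16) scale. Higher calls are more numerous up to 8-fold, 173 and 170 stand side by side from 8-fold to 16-fold, and lower calls are more numerous from 16-fold on.

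Several large falls were repeated measurements of the same stem. The 177 large falls lay in 143 stems and the 51 large rises in 47. At 32-fold or more the counts were 59 and 6 stems, and 77 and 16 without head replicate 1. A stem on arm 2R, picked after its values were seen, had 9 members, and all 9 were called lower, with log2 differences from -5 to -5.46. Its members measured 42.84 to 294.4 across the hemocyte arrays and 3821 to 9286 in head replicates 2, 3 and 4. Head replicate 1 was lower, at 1349 to 3872, and two-round carcasses were at 3401 to 12540. The suffix _a_at, which the array maker uses for probe sets that match several transcripts of a gene, marked 8 of the 9.

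Calls and large differences were most frequent among bright probe sets. The probe sets were ranked by mean level over all 16 arrays and divided into 5 bins of equal size. The brightest bin (median intensity 304) had 30.3% called higher and 17.4% lower. The next bin, at 61.5, had 17.4% and 17%. In the middle bin, at 22.2, lower calls were more frequent, at 9.69% against 6.13% higher. The dimmest bin, at 3.77, had 1 call in each direction. Of the large falls 153 lay in the brightest bin, and so did 38 of the large rises. The ranking includes the carcass arrays, and a 16-fold difference with 16 added needs a high level on the brighter side. The placement of large differences in the brightest bin therefore partly follows from the method. At low intensity the pseudocount compresses folds, so a small share of calls there does not show equal levels.

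The called probe sets carried much of the signal of each tissue. Together the 1872 higher ones held 40.66% to 44.47% of the summed Ag. intensity on the hemocyte arrays, against 10.64% to 15.68% on the head arrays. The 1570 lower ones held 25.86% to 34.3% on the head arrays and 3.037% to 3.614% on the hemocyte arrays. Head replicate 1 had the highest share of the first list among heads (15.68%, the other 3 at 10.64% to 11.14%) and the lowest of the second (25.86%, the other 3 at 32.17% to 34.3%). The lists were chosen on these values, so the shares are a description without a test, and intensity is not proportional to the number of molecules across probe sets.

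**Figure D4:**
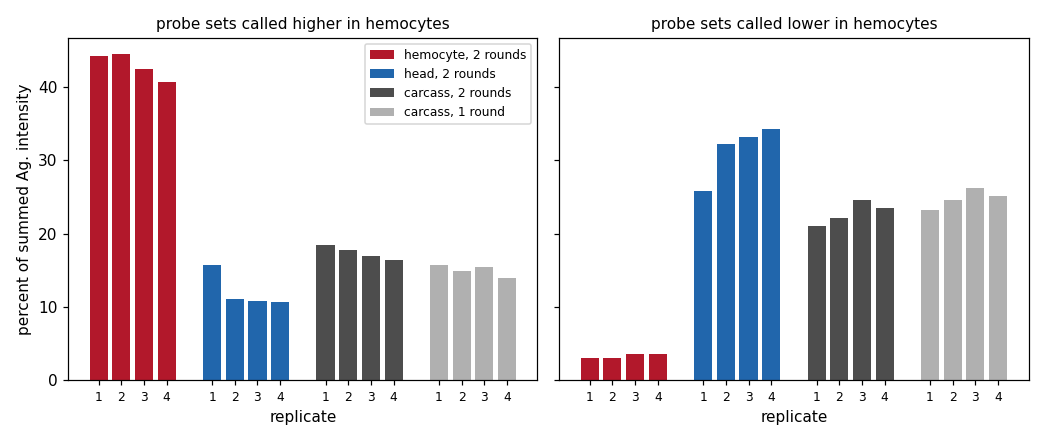
Share of the summed Ag. intensity held by the probe sets called higher (left) and lower (right) in hemocytes than in heads, on each of the 16 arrays, with bars numbered by replicate within tissue. The right panel shows hemocyte arrays at 3.037% to 3.614%, and two-round carcass arrays stand between the hemocyte and head arrays in both panels. One-round carcass arrays, at 13.95% to 15.71% (left) and 23.17% to 26.22% (right), reach the head range only through head replicate 1. That array stands at 15.68% and 25.86%, and the other heads at 10.64% to 11.14% and 32.17% to 34.3%.

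Most of the very brightest probe sets were not called. Of the 100 probe sets with the highest mean in hemocytes, at 7208 to 16129 intensity units, 24 were called higher in hemocytes and 0 lower. Of the 100 brightest in heads, at 6457 to 16265, 34 were called lower in hemocytes and 0 higher. Over all Ag. probe sets 11.1% were called higher and 9.3% lower. Each list was ranked by the mean of its own tissue, which favours calls towards that tissue and disfavours the opposite calls. Both lists shared 50 probe sets. Those brightest in hemocytes held 19.8% to 22.1% of the summed intensity there and 16.1% to 17.2% in heads.

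Probe sets detected on one side only were few and mostly dim. Above background on all 4 hemocyte arrays and on no head array were 123 probe sets (0.729%), and above it on all 4 head arrays and no hemocyte array were 297 (1.76%). All 8 arrays were above background for 6918 (41%) and none for 2560 (15.2%). The 123 had a median intensity of 37.4 in hemocytes and were at least 2.6-fold higher there by the median bound, with 8 at a bound of 10-fold or more. The 297 had a median of 43 in heads and were at least 3.17-fold lower in hemocytes by the median bound, with 48 at 10-fold or more and a largest bound of 291-fold. A bound divides the bright group by background or the measured value, whichever is higher per array. Without head replicate 1, and with absence then asked of 3 heads, the 123 became 211.

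Carcasses held a larger share of the head-only than of the hemocyte-only probe sets. All 4 two-round carcass arrays were above background for 23 of the 123 and for 137 of the 297, and none was for 41 and 34. Without head replicate 1 all 4 carcass arrays were above it for 44 of 211 and 166 of 384, and none was for 60 and 47. Single arrays also broke the pattern unevenly. Where all heads and exactly 1 hemocyte array were above background (301 probe sets), that array was replicate 4 in 106, replicate 2 in 80, replicate 1 in 59 and replicate 3 in 56. Where all hemocyte arrays and exactly 1 head array were above it (200), that array was replicate 1 in 88, replicate 4 in 51, replicate 3 in 31 and replicate 2 in 30. The hemocyte order matched that of all Ag. probe sets above background, at 10459, 10392, 10202 and 10050. Among heads, replicates 1 and 4 also had the most above it (10954 and 10943). The part of this in the counts was not tested.

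Named probe sets were the 2 largest rises and the 2 largest falls among called probe sets above background on all 8 arrays and without overlap, 1 per stem, so that both sides of each fold were measured. This left 1449 rises and 726 falls to choose from. The largest of all called falls, by 8.176 on the log2 scale, did not meet this rule, while the largest of all called rises, 5.858, did. The named falls are therefore not the extreme of the lower list.

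The largest measured rise was at Ag.2R.1112.0_CDS_at, a CDS probe set with arm 2R in its ID and alone in its stem. In hemocytes it measured 3004, 2151, 4296 and 4990 on replicates 1 to 4, and in heads 82.12, 57.95, 22.91 and 28.19. Every hemocyte array was far above every head array, and within heads replicates 1 and 2 were above 3 and 4. The log2 difference was 5.86 ± 0.34 (SE, n = 4 against 4, limma adjusted p = 2.27e-09), a 58-fold rise, and 6.10 without head replicate 1. Two-round carcasses measured 56.85 ± 20.5 (SD, n = 4), 0.25 ± 0.34 above heads on the log2 scale (limma adjusted p = 0.7).

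The next rise was at Ag.UNKN.1005.1_at, whose ID gives neither an arm nor a mark, with 5643, 3799, 8135 and 8233 in hemocytes and 195.1, 152, 78.54 and 109.6 in heads. The hemocyte arrays had the same order as at the first probe set, lowest on replicate 2 and highest on replicate 4. The difference was 5.43 ± 0.37 (SE, limma adjusted p = 1.11e-08), 43.1-fold, and 5.62 without head replicate 1. The only other member of its stem, a CDS probe set with the suffix _s_at (used where probes are shared between transcripts), rose as well, by 4.57 ± 0.36 (limma adjusted p = 6.5e-08). Two-round carcasses did not pass a difference from heads, at 132.8 ± 80.7 against 133.8 ± 50.8 (SD, n = 4; limma adjusted p = 0.901).

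The largest measured fall was at Ag.2L.444.1_a_at, on arm 2L by its ID. Heads measured 1497, 9293, 8265 and 9949, and hemocytes 28.36, 40.39, 18.58 and 51.75. Head replicate 1 was several-fold below the other heads and still far above every hemocyte array. The difference was -6.89 ± 0.45 (SE, limma adjusted p = 7.43e-09), 119-fold, and -7.54 without head replicate 1. The other member of its stem, a CDS probe set, fell by 6.03 ± 0.44 (limma adjusted p = 2.36e-08). In carcasses Ag.2L.444.1_a_at measured 3103 ± 368 after 2 rounds and 5417 ± 1200 after 1 round. With head replicate 1 among the heads, the two-round mean did not pass a difference from heads (log2 difference -0.91 ± 0.45, limma adjusted p = 0.187). The carcass arrays after 2 rounds, at 2576 to 3408, lay above head replicate 1 (1497) and below all the other heads (8265 to 9949). The carcass difference was not tested without head replicate 1.

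Ag.2L.161.0_CDS_at, also on 2L and alone in its stem, measured 7433, 10580, 10190 and 10020 in heads and 53.2, 44.97, 87.75 and 129.7 in hemocytes. The groups did not overlap, with head replicate 1 again the lowest head and hemocyte replicate 4 the highest hemocyte array. The difference was -6.73 ± 0.23 (SE, limma adjusted p = 8.42e-12), 106-fold, and -6.85 without head replicate 1. Carcasses measured 9893 ± 410 after 2 rounds, 0.06 ± 0.23 from heads on the log2 scale (limma adjusted p = 0.908).

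**Figure D5:**
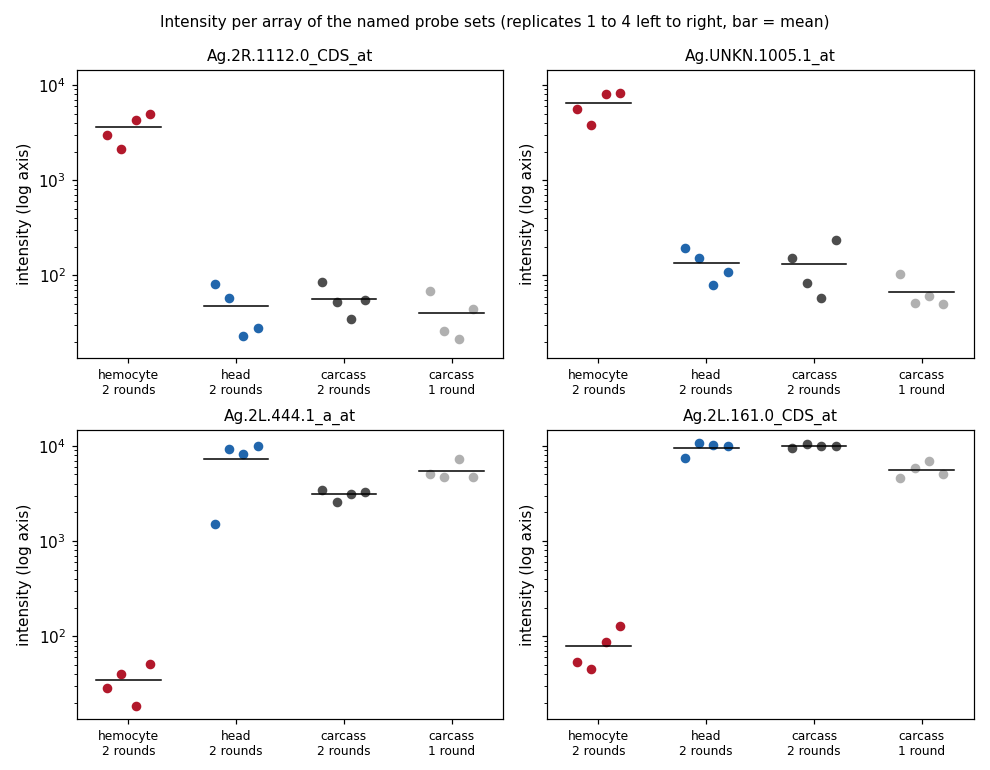
Intensity (log axis) of the 4 named probe sets on all 16 arrays, with replicates 1 to 4 from left to right in each tissue and a bar at the mean. The upper pair is bright in hemocytes alone, the lower pair is bright in heads and carcasses, and head replicate 1 of Ag.2L.444.1_a_at stands at 1497.

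Two-round carcasses had median levels nearer to heads than to hemocytes in both lists. Carcass arrays entered the estimate of the spread behind the calls, but not the hemocyte and head means. For the probe sets called higher in hemocytes the median log2 level was 8.57 in hemocytes, 6.66 in heads and 7.08 in two-round carcasses, and for those called lower 5.25, 7.53 and 6.71. The carcass mean lay between both tissues for 1378 (73.6%) of the higher and 1034 (65.9%) of the lower list, against 39.8% of all probe sets, and lists chosen for a wide gap favour a level in between. Below both tissues were 426 (22.8%) of the higher list, against 36.3% of all probe sets. Above both were 357 (22.7%) of the lower list, near the 23.8% of all probe sets. Among the 177 large falls carcasses were above both tissues for 57 (32.2%) and below both for 0, with a median level of 10.24 against 10.99 in heads and 5.74 in hemocytes. For the 51 large rises the medians were 11.02 in hemocytes, 6.44 in heads and 7.40 in carcasses. Carcasses were above both tissues for 3 of these rises and below both for 10. Without head replicate 1 the carcass mean lay between for 77.4% of the higher and 71.2% of the lower list, and above both for 41 of 206 large falls. The medians of the 75 large rises were then 11.19 in hemocytes, 6.67 in heads and 8.26 in carcasses.

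Large falls were unevenly spread over kinds of probe sets. UTR probe sets had 36 of their 790 (4.56%) at least 16-fold lower in hemocytes and 1 (0.127%) at least 16-fold higher, against 1.05% and 0.302% of all probe sets. CDS probe sets had 116 of 14060 (0.825%) and 46 (0.327%). By suffix, 81 of 3327 _a_at probe sets (2.43%) fell this far, and 77 of 12171 plain _at ones (0.633%). Members of 1 stem count separately here, and the 2R stem with 9 large falls gave 8 CDS probe sets with _a_at. These kinds also differed in brightness, with median head intensities of 244 for UTR, 20.3 for CDS, 48.8 for _a_at and 20.3 for _at, and the part of brightness was not tested.

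Class medians moved little beside these tails. The median log2 difference was -0.0517 at UTR, -0.0683 at unmarked and 0.0039 at CDS probe sets. The UTR and unmarked medians turned positive with median centring (0.0985 and 0.0819, with 0.154 at CDS), which moved the median of all probe sets to 0.146. With quantile normalization they were -0.144 and -0.047. Leaving out 1 array moved the UTR median between -0.00184 (without hemocyte replicate 1) and -0.112 (without hemocyte replicate 4), and it was -0.109 without head replicate 1. In the 728 stems with both marks, the mean hemocyte-minus-head difference of the UTR members was below that of the CDS members in 457 (62.8%), and the median of UTR minus CDS over all 728 was -0.206 on the log2 scale.

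By arm, the share of large falls ran from 0.361% of UNKN and 0.521% of 3L to 1.31% of 2L and 1.42% of 3R. On 3L, 13 large falls stood beside 10 large rises, whereas 2L had 45 and 8, 2R had 54 and 11, and 3R had 45 and 12. These are counts of probe sets, and 9 of the 54 on 2R belong to 1 stem. All calls together were more even, with 9.22% to 10.6% lower and 11.8% to 12.9% higher on these 4 arms. The X had 8.27% lower and 10.2% higher, and UNKN 3.66% and 3.82%, with the lowest median intensities (9.22 in hemocytes and 10.3 in heads).

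Controls on the same arrays give a measure of handling. The 9 probe sets of the hybridization spikes (bioB, bioC, bioD and cre by their IDs) overlapped between hemocytes and heads, with log2 differences of means from -0.3 to 0.187. Of the 12 probe sets of the poly-A spikes (dap, lys, phe and thr), 11 had a higher mean in hemocytes, by up to 1.13, and 4 did not overlap. The ratio of 3' over middle intensity was 2.06 to 2.326 in hemocytes and 3.127 to 4.033 in heads for actin, a cytoskeletal protein. For Gapdh, a glycolytic enzyme, it was 1.472 to 2.218 and 2.704 to 5.643. For the spike thr it ran the other way, at 3.065 to 5.084 in hemocytes and 1.336 to 2.091 in heads, while dap, lys and phe overlapped. They ranged from 3.493 to 4.403 and 3.894 to 4.179 for dap, from 1.444 to 3.588 and 1.605 to 4.207 for lys, and from 2.248 to 2.759 and 2.458 to 3.903 for phe. The 6 actin and Gapdh control probe sets all had a higher mean in hemocytes, by 0.186 to 1.35 on the log2 scale, and 3 did not overlap. The part of these differences in the calls was not tested.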

How the data were processed

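The authors deposited linear intensity values, 1 per probe set and array, and used GCOS 1.4 per the submitters' processing notes. How probe values were summarised, corrected and scaled is not given in the sources used here. No further normalization was applied. Values were taken as log2(intensity + 16). R 4.3.3 and limma 3.58.1 (lmFit, eBayes) gave the tests for all 16884 Ag. probe sets, with the 4 tissue and amplification groups as terms and 12 residual df, and p was adjusted by Benjamini-Hochberg over all of them. Carcass arrays thus add to the estimate of the spread. The prefixes Ag. and Pf. were read as mosquito and malaria parasite probe sets, which no source used here records.

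Tested on simulated data for hemocyte over head, the procedure found 89% of 100 changes of 3-fold and 100% of 100 changes of 8-fold, with 5 false calls among 16884. The simulated noise was normal and independent between arrays, with no deviating array, and far fewer probe sets changed than were called in the data. These rates do not cover such features of the real arrays. The precision of each mean is limited by 4 arrays a group. The comparison, the classes and the rule for named probe sets were chosen with earlier results of these data known. That rule took the 2 largest rises and falls among called probe sets above background on all 8 arrays, without overlap, 1 per stem. Marker gene lists had been drawn up for hemocytes, head neurons and photoreceptors, antenna and palps, muscle, fat body, trachea and cuticle, and salivary gland, but 0 IDs could be paired with genes, so none was used. Alternatives covered the pseudocount, scaling, arrays and probe sets in the fit, the variance prior, a replicate block and leaving out each array. The counts per stem, the counts of probe sets that deviate on 1 array the fits of Pf. and other IDs, and further values without head replicate 1 were added after the values were seen.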

Additional observations from a re-analysis of the deposited data

Results flagged for a closer look

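Head replicate 1 was an outlier among the heads at both named falls, by Dixon's test at the 95% level on log2 values. It measured 1497 at Ag.2L.444.1_a_at, where the gap to the nearest other head was 0.902 of the whole range, and 7433 at Ag.2L.161.0_CDS_at, where it was 0.846. The other heads were at 8265 to 9949 at the first and at 10020 to 10580 at the second. At the second the distance was thus small and the other heads lay close together. Of 30 groups of 4 tested (named probe sets, control ratios and array measures), 2 stood out in this way, and chance flags about 1 in 20.

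Outside the Ag. probe sets, 1 of the 4502 Pf. probe sets was called higher in hemocytes, with a mean of 30.9 (22.9 to 42.2) against 2.89 in heads (1.94 to 4.77) and 6.59 in two-round carcasses (log2 difference 1.3, limma adjusted p = 2.6e-05, over the Pf. probe sets). It was above background on 4 hemocyte arrays and 0 head arrays. Another was called lower, at 95.2 in hemocytes and 635 in heads (log2 difference -2.27, limma adjusted p = 0.0021), so 0.0444% were called in all. The median difference of the Pf. probe sets was -0.00705.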

How the results depend on the processing

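The pseudocount moved the counts most. With 1 in place of 16 there were 119 rises and 349 falls of at least 16-fold, and with 64 there were 18 and 97, with 928 lower calls in all. A pseudocount of 64 kept 2188 of the 3442 calls and one of 1 kept 3418, by construction of the scale. Median centring kept 3241 of them and gave 2238 higher and 1369 lower calls in all, and quantile normalization kept 3029 and gave 1630 and 1571, with 0 calls turned in direction under any alternative. Leaving out each array in turn gave 1742 to 1979 higher and 1529 to 1640 lower calls, 45 to 75 large rises and 168 to 206 large falls. The 123 hemocyte-only probe sets became 151 to 211 (highest without head replicate 1) and the 297 head-only ones 326 to 403, and 169 and 380 with background at the 99th percentile, alternatives chosen after seeing the data. The 4 named probe sets kept direction and call under all 16 alternatives, with adjusted limma p up to 2.6e-05. That highest value was at Ag.2L.444.1_a_at with only the 8 hemocyte and head arrays in the fit, against 7.4e-09 with all 16. In the same fit limma adjusted p was 5.8e-06 at Ag.2R.1112.0_CDS_at, 4.9e-06 at Ag.UNKN.1005.1_at and 9.4e-07 at Ag.2L.161.0_CDS_at. Replicate numbers are shared between groups, but same-numbered arrays did not deviate together (correlations of -0.0124, 0.0369, 0.0679 and -0.145), and the replicate block gave 1873 higher and 1572 lower calls. Depth is set by signal over background, with 59.5% to 64.9% of Ag. probe sets above it per hemocyte or head array.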

Other observations

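Of 1657 stems with more than 1 member, 1020 had no called member, 328 had 1 and 309 had at least 2. All members were called in the same direction in 262. Among the 309, all calls ran the same way in 299. In the other 10 the members were called in opposite directions. In a stem on arm 3R a CDS probe set was 4.19 higher in hemocytes on the log2 scale (4332 against 218.3 intensity units) while another CDS probe set had a difference of -2.16 (277.9 against 1305). In a stem on arm 2R a CDS probe set had a difference of -3.96 (28.57 against 685.2) and an unmarked one of 1.05 (1758 against 826.1). Both stems were picked after their values were seen, and limma adjusted p was at most 0.000425 for the 4 probe sets.

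The 1227 probe sets with neither an Ag. nor a Pf. prefix, array controls left out, had 9 called higher and 3 lower in hemocytes (0.978%), against 20.4% of the Ag. probe sets.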
